A study of Rattus norvegicus with 6 samples.

Results

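The genes that carry glucose to pyruvate, lactate and the mitochondrion were examined in neurons taken from L1-L2 dorsal root ganglia (DRG) of the spontaneously hypertensive rat (SHR), a strain with high blood pressure. The set held 35 genes picked by function: glucose and lactate carriers, the glycolytic steps with their paralogues, the regulators of phosphofructokinase, the subunits of lactate and pyruvate dehydrogenase, and the kinases of the latter. The table of 25689 genes had a row for 34 of them, since Gapdh was not analysed here, and 33 were among the 14919 genes that passed the filter on low counts. Slc2a3 did not pass it. The rats carried no engineered allele and were labelled as wild type, at 6 to 8 weeks of age. The study's methods give an older age at purchase, and which age holds for these samples is not known. They had undergone perirenal adipose tissue ablation (PRATA), the surgical removal of the fat around the kidneys, or a sham operation, and were sampled 4 weeks later, with 3 samples per group. Collagenase and trypsin had been used to dissociate the ganglia before neurons were flushed off a coated dish on which glia adhere differently. The labels do not say how many animals went into a sample or that samples came from separate animals, so the p-values measure only the spread between these samples.

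Glycolysis splits glucose into pyruvate in the cytosol. Lactate dehydrogenase interconverts pyruvate and lactate, monocarboxylate carriers move both across membranes, and pyruvate dehydrogenase feeds pyruvate into the tricarboxylic acid cycle unless its kinases switch it off. In ganglia, satellite glia wrap the cell bodies of sensory neurons, and glia are known to take up glucose and pass lactate to neurons.

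Total counts lay between 5892967 and 15226952 per sample, so that 3 counts, the floor used here, stood for 0.207 to 0.468 depth-scaled counts (CPM, with TMM factors). Levels are given as CPM, which are not divided by gene length, so they do not rank different genes by amount of transcript. Sums and shares over several genes are of reads, to which longer transcripts add more. Checked against the neuron label, the 25 sensory neuron markers all passed the filter, with a summed level of 17200 to 24900 CPM after PRATA and 12100 to 18100 CPM after sham. Glial RNA was present in every sample as well: the 12 satellite glia markers summed to 3490 to 6600 CPM after PRATA and 4690 to 9110 CPM after sham, and the 12 Schwann cell markers to 1670 to 2100 CPM and 1060 to 1280 CPM. PRATA replicate 3 and sham replicate 1, a pair chosen after seeing the data, stood apart from the other 4 samples in some genes. Other pairs of samples were not counted in the same way. For this count, CPM were scaled by total counts without TMM factors. Among genes over 5 CPM on the higher side, 33 were at least 2-fold lower and 99 at least 2-fold higher in this pair than in each of those 4. Small RNA genes made up 20 of the former and 52 of the latter. Eno2 was the single member of the set among the 33, and there was none among the 99.

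After PRATA, 2 members were lower at an unadjusted p under 0.05 and 2 were higher. The lower ones were Ldha, the lactate dehydrogenase subunit that predominates where pyruvate is reduced to lactate, and Hk2, the hexokinase isoform induced by insulin and hypoxia. The higher ones were Pfkfb2, which makes and degrades fructose 2,6-bisphosphate, the activator of phosphofructokinase, and Slc16a3, a carrier suited to lactate export. None of the 33 members had an adjusted p under 0.05 by the quasi-likelihood test of edgeR, adjusted by Benjamini-Hochberg over all genes. That test called 0 of 14919 genes at that level, beside 2734 at an unadjusted p under 0.05, and its smallest adjusted p was 0.156. DESeq2 called 728 genes and limma voom with sample weights 1173. Over all genes tested, 8.19% were higher and 10.1% lower at an unadjusted p under 0.05, against 6.06% of the members in each direction. In either direction, 18.3% of all genes and 12.1% of the members were called, so calls were not more frequent among the members than in the background. The counts depended on single samples: without sham replicate 2, 7 members were higher (Gpi, Pfkl, Pfkm, Pfkp, Pfkfb2, Ldhb and Slc16a3) and 5 lower (Slc2a1, Hk2, Pfkfb3, Ldha and Slc16a1), beside 2073 genes higher and 2181 lower. The lower members numbered 1 without PRATA replicate 1, without PRATA replicate 3, without sham replicate 1 and without sham replicate 3, and the higher ones 1 without sham replicate 3.

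The remaining 29 members did not pass that threshold. Fitted log2 fold changes of PRATA against sham ranged over the members from -0.82 for Hk2 to 1.301 for Slc16a3, with a median of 0.17, beside a median of 0.03 over all genes. Of the 33 members, 24 had a fold change above 0, which is 72.7% against 52% of all genes. The 3 samples of one group lay wholly above those of the other for 4 members (Pfkfb2, Slc16a3, Pdk2 and Pdk3), or 12.1% against 11.6% of all genes, and wholly below for 1 member (Ldha), or 3.03% against 11.2%. The median of the members was between 0.05 without sham replicate 1 and 0.31 without sham replicate 2.

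**Figure D1:**
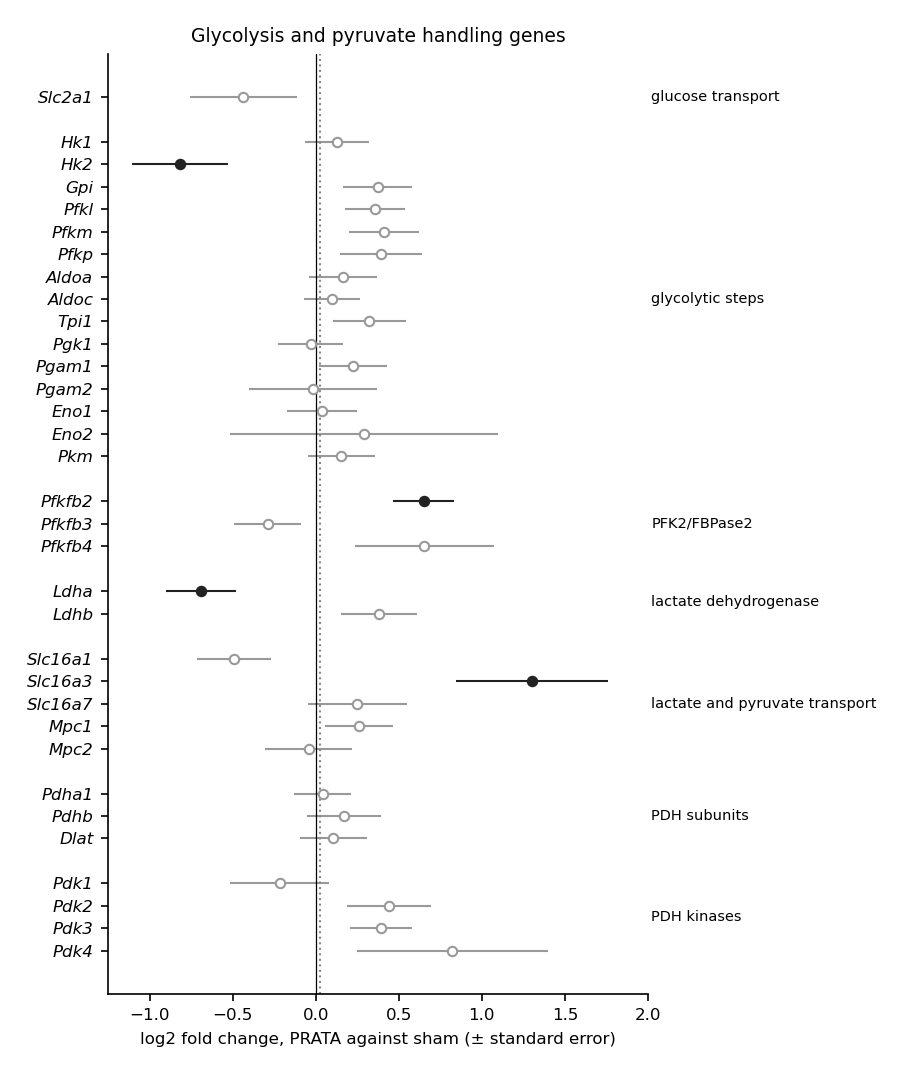
Log2 fold change of PRATA against sham for the 33 members tested, grouped by role, with bars of 1 standard error; filled points passed an unadjusted p of 0.05, the solid line is 0 and the dotted line is the median of all genes tested, 0.03. Hk2 and Ldha lie to the left, Pfkfb2 and Slc16a3 to the right, and most glycolytic steps lie slightly above 0.

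The sequences upstream of the 4 called members are shown because several glycolytic genes are known targets of the hypoxia-inducible factors. These factors bind the core ACGTG, and other forms of the core were not searched. The sequences run from 250 bases before to 50 bases after the annotated start and are credited to RefSeq on the GRCr8 build. They are written in the direction of transcription with each ACGTG, or CACGT on the opposite strand, in capitals. These lie at chr1:106507842-106508141 on the plus strand for Ldha, chr4:116841226-116841525 on the minus strand for Hk2, chr13:44726922-44727221 on the minus strand for Pfkfb2 and chr10:106712078-106712377 on the plus strand for Slc16a3.
Ldha promoter: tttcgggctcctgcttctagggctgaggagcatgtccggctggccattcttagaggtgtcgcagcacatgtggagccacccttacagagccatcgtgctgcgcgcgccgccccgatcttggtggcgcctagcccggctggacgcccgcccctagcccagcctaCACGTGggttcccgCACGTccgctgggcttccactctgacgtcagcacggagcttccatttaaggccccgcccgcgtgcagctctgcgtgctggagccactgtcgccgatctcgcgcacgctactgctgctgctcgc
Hk2 promoter: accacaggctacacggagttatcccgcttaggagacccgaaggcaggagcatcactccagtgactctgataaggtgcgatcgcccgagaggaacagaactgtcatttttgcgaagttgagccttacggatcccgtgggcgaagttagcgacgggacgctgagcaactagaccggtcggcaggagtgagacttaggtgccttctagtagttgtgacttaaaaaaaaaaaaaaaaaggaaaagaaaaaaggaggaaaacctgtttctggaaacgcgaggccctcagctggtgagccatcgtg
Pfkfb2 promoter: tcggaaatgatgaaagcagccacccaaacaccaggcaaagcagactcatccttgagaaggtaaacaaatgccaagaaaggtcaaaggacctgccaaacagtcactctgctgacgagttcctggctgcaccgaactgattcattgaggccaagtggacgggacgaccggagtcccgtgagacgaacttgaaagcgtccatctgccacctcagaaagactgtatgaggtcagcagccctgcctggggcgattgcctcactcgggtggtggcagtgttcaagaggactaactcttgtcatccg
Slc16a3 promoter: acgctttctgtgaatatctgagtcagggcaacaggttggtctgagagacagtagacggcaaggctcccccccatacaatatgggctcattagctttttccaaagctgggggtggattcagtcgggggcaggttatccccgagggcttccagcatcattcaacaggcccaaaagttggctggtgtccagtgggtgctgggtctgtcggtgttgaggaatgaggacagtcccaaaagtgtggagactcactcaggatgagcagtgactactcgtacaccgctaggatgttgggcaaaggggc
The Ldha window held the letters at 3 positions, 2 of them overlapping in 1 CACGTG, whereas the windows of Hk2, Pfkfb2 and Slc16a3 held none. Promoter entries were found for 33 of the 35 listed genes, Gapdh included, and 16 of these 33 (48.5%) held the core in either direction, against 6444 of 33469 promoters of the same length (19.3%). Listed genes were counted by their first entry, whereas the 33469 kept every entry of each gene. The palindrome CACGTG, which always contains both forms of the core, was in 5 of the 33 (15.2%) and in 6.42% of all promoters. The members' windows were richer in G and C, with a median of 61.3% against 51.7%, and the part of base composition in these shares was not tested. A match of letters is a description and not a binding site.

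Glucose entry is served by Slc2a1, which encodes the carrier of barrier and glial cells, and Slc2a3, known as the carrier of neurons. Slc2a1 stood at 135, 144 and 92.2 CPM in PRATA replicates 1 to 3 and at 208, 92.7 and 201 CPM in sham replicates 1 to 3. Sham replicates 1 and 3 were the highest of the 6 samples, while sham replicate 2 lay beside PRATA replicate 3, so the groups overlapped. The log2 fold change was -0.44 ± 0.32 (SE), with an adjusted p of 0.492 in edgeR's test. It was -0.72 without sham replicate 2, past the unadjusted threshold with an adjusted p of 0.0881 in edgeR's test, -0.26 without PRATA replicate 3 and -0.27 without sham replicate 1. Slc2a3 had 3, 3 and 3 reads after PRATA and 3, 2 and 3 after sham. All of these are at or under the floor of 3 counts, so no fold is given. How reads that match several genes were counted is not given in the sources used here.

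Hexokinases trap glucose as glucose 6-phosphate, with Hk1 the constitutive isoform of brain and nerve. Hk2 was at 83.0, 100 and 69.1 CPM after PRATA and at 170, 89.0 and 184 CPM after sham. The difference rested on sham replicates 1 and 3, because sham replicate 2 lay inside the PRATA range. Its log2 fold change was -0.82 ± 0.29 (SE), with an unadjusted p of 0.0217 and an adjusted p of 0.216 by edgeR's test. When single samples were left out, Hk2 passed the unadjusted threshold without PRATA replicate 2 or sham replicate 2 and in none of the other 4 cases. Without sham replicate 2 its log2 fold change was -1.07 with an adjusted p of 0.0367 in edgeR's test, and without PRATA replicate 3 and sham replicate 1 together it was -0.59. Hk1 showed no such pattern. It was at 337, 289 and 281 CPM after PRATA and 235, 296 and 300 CPM after sham, a log2 fold change of 0.13 ± 0.19 (SE).

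The samples high in Hk2 were those high in the summed satellite glia markers, a sum of which Apoe, a lipid carrier made by glia, took 78.2 to 82.0% in each sample. Ordered from high to low, the summed markers ran sham replicate 3, sham replicate 1, PRATA replicate 2, sham replicate 2, PRATA replicate 1 and PRATA replicate 3. Hk2 had that same order, as did 98 of 14919 genes (0.657%), and was the single member to do so. Among the single markers, Apoe had the order of Hk2 and the other 11 did not, and the sum of those 11 differed from it by an exchange of sham replicates 1 and 3. These orders were compared after the values had been seen. All 12 satellite glia markers passed the filter and had a fold change below 0, with a median of -0.60. At an unadjusted p under 0.05, 2 of them were lower (16.7%, against 10.1% of all genes). In bulk RNA, fewer cells of a type and less RNA per cell cannot be told apart, and the part of glial content in the difference of Hk2 was not tested.

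The middle steps of glycolysis had small positive fold changes. Phosphofructokinase, the committed step, was covered by its liver (Pfkl), muscle (Pfkm) and platelet (Pfkp) isoforms, all of which overlapped between groups. Pfkp was at 445, 350 and 398 CPM after PRATA and 227, 396 and 285 CPM after sham, where sham replicate 2 again lay within the PRATA range and sham replicate 1 was lowest. Its log2 fold change was 0.39 ± 0.25 (SE), beside 0.41 ± 0.21 for Pfkm and 0.36 ± 0.18 for Pfkl, with adjusted p between 0.330 and 0.419 in edgeR's test. Without sham replicate 2, the value of Pfkp was 0.64, and without sham replicate 1 it was 0.20. All 3 isoforms and Gpi passed the unadjusted threshold without sham replicate 2 and with voom. Gpi, the isomerase one step earlier, had a log2 fold change of 0.37 ± 0.21 (SE). The proportions of the isoforms differed little: within samples, the log2 ratio of Pfkp to Pfkm differed by 0.00 and that of Pfkl to Pfkm by -0.07 between groups.

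Pfkl, Pfkm and Gpi had the same order of samples as the summed sensory neuron markers, from PRATA replicate 3 and PRATA replicate 1 through sham replicate 2, PRATA replicate 2 and sham replicate 3 to sham replicate 1. Over all genes, 218 of 14919 (1.46%) had this order. The sum of the markers kept it without Nefm, the marker with the most reads, which took 14.4 to 19.7% of the sum. The related neurofilament genes Nefl and Nefh stayed in that sum and, like Nefm, were lowest in PRATA replicate 2 among the PRATA samples. Nefl, Nefm and Nefh were at 1766, 2474 and 1366 CPM in PRATA replicate 2 and at 2341, 2994 and 1878 CPM in sham replicate 2. The sums over all markers were 17200 and 18100 CPM in these samples. Without the 3 genes PRATA replicate 2 stood above sham replicate 2, so the sum did not keep the order. Of the 25 neuron markers 24 had a fold change above 0, with a median of 0.46. At an unadjusted p under 0.05, 7 were higher (28%, against 8.19% of all genes) and 1 lower (4%, against 10.1%). The part of neuronal content in these fold changes was not tested.

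**Figure D2:**
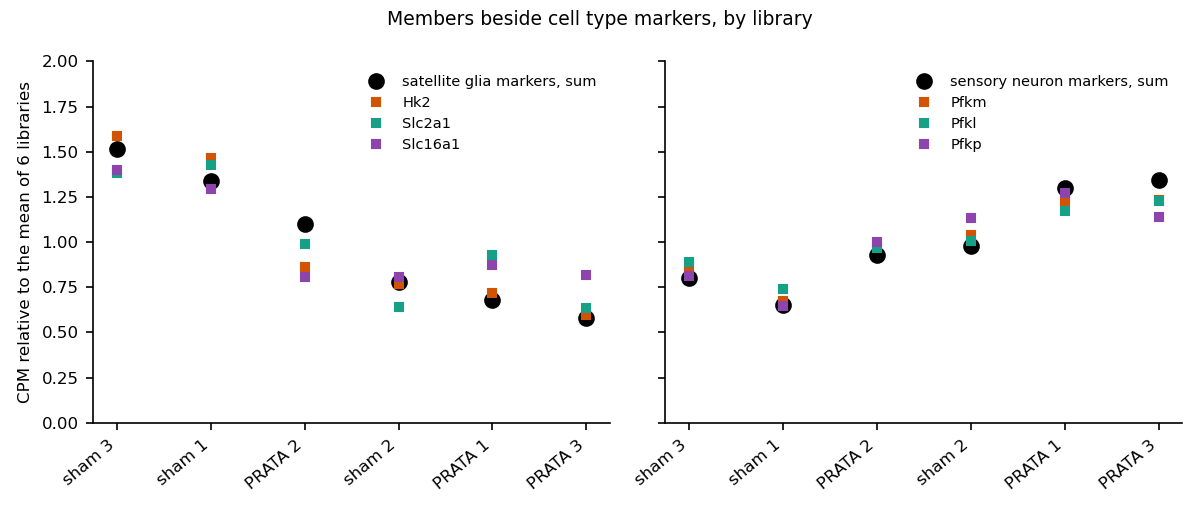
Level of selected members in each sample, divided by the mean of the 6 samples, beside the summed CPM of the satellite glia markers (left) and the sensory neuron markers (right); in both panels samples are ordered from left to right by the satellite glia sum. Hk2 is lower where the glial sum is lower, from sham replicate 3 to PRATA replicate 3, while Pfkm, Pfkl and Pfkp are lowest in sham replicate 1, where the neuronal sum is lowest.

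Below the split of the hexose, levels differed little between groups. Aldoa, the widespread aldolase, was at 786, 635 and 787 CPM after PRATA and 573, 713 and 685 CPM after sham. Aldoc, the aldolase of brain, was at 207, 214 and 202 CPM after PRATA and 221, 177 and 185 CPM after sham. Both overlapped between groups, with log2 fold changes of 0.16 and 0.10. Tpi1, Pgk1 and Pgam1, which encode the triose isomerase, the first ATP-yielding kinase and the main phosphoglycerate mutase, had log2 fold changes of 0.32, -0.03 and 0.22. Pgam2, the mutase of muscle, was near 1.7 CPM in both groups and had a log2 fold change of -0.02 ± 0.39 (SE).

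Enolase exists as the general form Eno1 and the neuronal form Eno2, which is used as a marker of neurons. Eno1 was at 511, 493 and 583 CPM after PRATA and 413, 572 and 563 CPM after sham, a log2 fold change of 0.04 ± 0.21 (SE), and its sign turned under several alternatives. Eno2 was at 128, 105 and 19.6 CPM after PRATA and 12.6, 114 and 80.3 CPM after sham. The low values were those of PRATA replicate 3 and sham replicate 1, the samples that stood apart, although PRATA replicate 3 had the highest sum of neuronal markers. The fold change of Eno2 accordingly had the largest standard error of the set, 0.29 ± 0.81 on the log2 scale, and with the set of those samples as a factor, chosen after seeing the data, it was 0.38 with an adjusted p of 0.390 in edgeR's test. Pkm, the pyruvate kinase of the last step, was at 569, 520 and 638 CPM after PRATA and 447, 542 and 562 CPM after sham. Its groups overlapped, with a log2 fold change of 0.16 ± 0.20 (SE).

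The enzymes that set the level of fructose 2,6-bisphosphate did not share a direction. Pfkfb2 was at 17.8, 20.4 and 22.1 CPM after PRATA and 11.95, 13.9 and 12.8 CPM after sham, so the PRATA samples were all above the sham samples. The means were 20.1 ± 2.18 and 12.9 ± 0.974 CPM (SD, n = 3 each), a log2 fold change of 0.65 ± 0.19 (SE) with an unadjusted p of 0.00788 and an adjusted p of 0.174 by edgeR's test. Pfkfb2 passed the unadjusted threshold with each single sample left out, but not without PRATA replicate 3 and sham replicate 1 together, when its log2 fold change was 0.52. Pfkfb3, the isoform with the strongest kinase activity, was at 215, 210 and 189 CPM after PRATA and 245, 201 and 303 CPM after sham. These ranges overlapped, and the log2 fold change was -0.29 ± 0.20 (SE). Pfkfb4, at 3.59 to 11.5 CPM, had a log2 fold change of 0.65 ± 0.42 (SE). Leaving out sham replicate 1, its highest sham sample, raised this to 1.31, past the unadjusted threshold, and leaving out sham replicate 2 lowered it to 0.41. It also passed with voom and without PRATA replicate 3 and sham replicate 1 together.

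Lactate dehydrogenase held the clearest contrast between paralogues. Ldha was at 467, 492 and 540 CPM after PRATA and 942, 674 and 802 CPM after sham, so the lowest sham sample was above the highest PRATA sample. The means were 499.8 ± 37.0 and 806 ± 134 CPM (SD, n = 3 each), or 1.61-fold lower in the fit, a log2 fold change of -0.69 ± 0.21 (SE). The unadjusted p was 0.0107 and the adjusted p 0.180 by edgeR's test, while DESeq2 gave an adjusted p of 0.0164 and limma voom 0.0379. Ldha passed the unadjusted threshold with each single sample left out and without PRATA replicate 3 and sham replicate 1 together, at log2 fold changes from -0.80 to -0.58. Ldhb, the subunit that predominates where lactate is oxidised, was at 131, 87.1 and 127 CPM after PRATA and 72.6, 109 and 83.8 CPM after sham. Its groups overlapped, with a log2 fold change of 0.38 ± 0.23 (SE) and an adjusted p of 0.400 in edgeR's test.

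The share of Ldha among reads of both subunits was 78.1% (95% Clopper-Pearson interval 76.9 to 79.3%), 84.96% (84.1 to 85.8%) and 81.0% (80.1 to 81.8%) after PRATA. After sham it was 92.9% (92.4 to 93.3%), 86.1% (85.1 to 87.0%) and 90.5% (89.9 to 91.1%). These intervals reflect counting error alone, as reads of 1 amplified molecule cannot be recognised. No PRATA share reached a sham share, although the intervals of PRATA replicate 2 and sham replicate 2 overlapped. On the log2 scale, the ratio of Ldhb to Ldha was 1.05 higher after PRATA, or 2.08-fold. The exact two-sided permutation p was 0.1, the smallest that 3 samples against 3 can give, and 0.7 after adjustment over the 7 paralogue pairs. The satellite glia markers, with a median log2 fold change of -0.60, were lower along with Ldha. Unlike Ldha, their sum overlapped between groups, at 6600 CPM in PRATA replicate 2 and 4690 CPM in sham replicate 2. Singly, 11 of the 12 overlapped. The summed Schwann cell markers were separated between groups in the opposite direction, and 11 of the 12 had a fold change above 0, with a median of 0.77. Without Ngfr, a receptor that sensory neurons also make, that sum was 867 CPM in PRATA replicate 3 and 866 CPM in sham replicate 1, so these samples were then level. The part of either cell type in the level of Ldha was not tested.

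**Figure D3:**
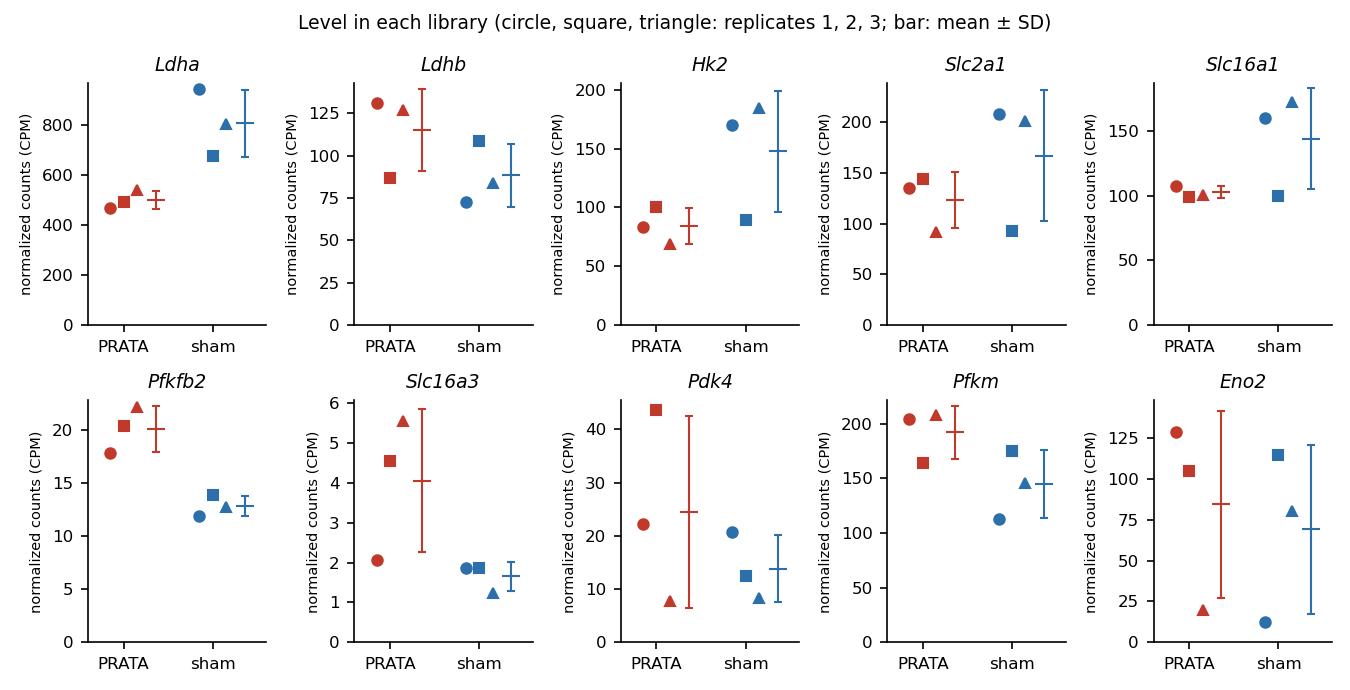
Level in CPM of 10 members in each sample, with circles, squares and triangles for replicates 1, 2 and 3 and bars for the mean ± SD; every vertical axis starts at 0. The Ldha samples after PRATA lie at 467 to 540 CPM, all below the sham samples, the Pfkfb2 samples after PRATA lie above the sham samples, and sham replicate 2 lies with the PRATA samples for Hk2, Slc2a1 and Slc16a1.

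Of the 7 paralogue pairs, Ldhb to Ldha was the single pair whose groups did not overlap. The log2 ratio of Hk2 to Hk1 was lower by 0.89 after PRATA on average and that of Slc16a7 to Slc16a1 higher by 0.70, with sham replicate 2 inside the PRATA range for the former and above it for the latter. The ratio of Eno2 to Eno1 differed by 0.34, and that of Aldoc to Aldoa by -0.06. The pair of Slc2a3 and Slc2a1 was left out because Slc2a3 was at the floor.

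**Figure D4:**
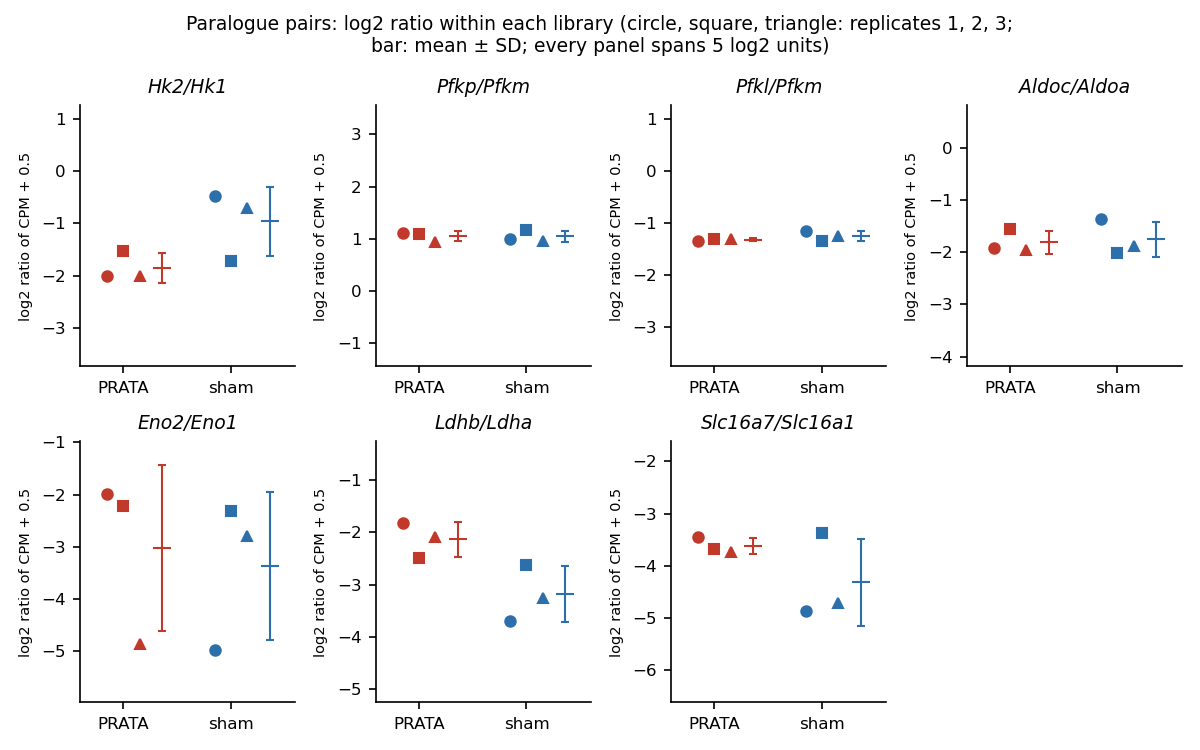
Log2 ratio of CPM plus 0.5 between paralogues within each sample, for 7 pairs, with bars for the mean ± SD of 3 samples; every panel spans 5 log2 units. The ratio of Ldhb to Ldha lies higher in each PRATA sample than in each sham sample, while the ratios of the phosphofructokinase isoforms are nearly level.

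The monocarboxylate carriers differed in direction by isoform. Slc16a1, the widespread carrier MCT1, was at 108, 99.4 and 101 CPM after PRATA and 160, 99.7 and 173 CPM after sham. Sham replicates 1 and 3 were high and sham replicate 2 lay within the PRATA range, the same arrangement as for Hk2, with a log2 fold change of -0.49 ± 0.22 (SE) and an adjusted p of 0.289 in edgeR's test. Slc16a3, which encodes MCT4 of glycolytic cells, was at 2.07, 4.54 and 5.54 CPM after PRATA and 1.87, 1.87 and 1.23 CPM after sham. All PRATA samples lay above the sham samples, but PRATA replicate 1 did so narrowly. Its log2 fold change of 1.301 ± 0.46 (SE) had an unadjusted p of 0.0215 and an adjusted p of 0.216 by edgeR's test. It was the single member past a 2-fold difference at an unadjusted p under 0.05, a threshold that 1.17% of all genes passed upward and 3.23% downward.

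The higher mean of Slc16a3 rested on PRATA replicates 2 and 3. It did not pass the unadjusted threshold without PRATA replicate 2, without PRATA replicate 3 or without sham replicate 3, nor without PRATA replicate 3 and sham replicate 1 together, when its log2 fold change was 1.13, nor with limma voom, at 1.19. The summed macrophage markers, known from a cell type that uses MCT4, were 70.7, 214 and 161 CPM after PRATA and 127, 72.1 and 56.8 CPM after sham, so that PRATA replicates 2 and 3 were also highest there. All 12 markers passed the filter and 9 had a fold change above 0, with a median of 0.57. At an unadjusted p under 0.05, 1 was higher (8.33%, against 8.19% of all genes). Sham replicate 1 lay above PRATA replicate 1 in the sum, unlike in Slc16a3. The part of these markers in the level of Slc16a3 was not tested. Slc16a7, which encodes the high-affinity carrier MCT2 of neurons, was at 4.98 to 9.42 CPM, with a log2 fold change of 0.25 ± 0.30 (SE).

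Entry of pyruvate into mitochondria and its oxidation showed small differences. Mpc1, a subunit of the mitochondrial pyruvate carrier, was at 39.6, 36.6 and 43.7 CPM after PRATA and 25.0, 38.1 and 37.2 CPM after sham, with overlapping groups and a log2 fold change of 0.26. Its partner Mpc2 was at 4.37 to 5.48 CPM, with a log2 fold change of -0.04. Pdha1, the catalytic subunit of pyruvate dehydrogenase, was at 235, 193 and 220 CPM after PRATA and 191, 225 and 212 CPM after sham. The samples of both groups were interleaved, and its log2 fold change was 0.04 ± 0.17 (SE). Pdhb and Dlat, the other subunits in the set, had log2 fold changes of 0.17 and 0.11.

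The kinases that inhibit pyruvate dehydrogenase had a median log2 fold change of 0.42, and none of the 4 passed the unadjusted threshold. Pdk1, the kinase induced by hypoxia, was at 8.13, 6.45 and 5.85 CPM after PRATA and 5.53, 10.3 and 8.03 CPM after sham. Pdk4, the kinase induced by fasting and fatty acids, was at 22.2, 43.6 and 7.83 CPM after PRATA and 20.7, 12.5 and 8.31 CPM after sham. Its mean was set by PRATA replicate 2, without which the log2 fold change of 0.82 ± 0.58 (SE) became 0.105, while without PRATA replicate 3 it was 1.25 and passed the unadjusted threshold. Without PRATA replicate 3 and sham replicate 1 together it was 1.68 and also passed. The PRATA and sham samples did not overlap for Pdk2 and Pdk3. Pdk2 was at 7.33 to 9.57 CPM against 4.98 to 7.08 CPM and Pdk3 at 23.3 to 27.1 CPM against 15.9 to 21.2 CPM, with log2 fold changes of 0.44 and 0.40 and adjusted p of 0.383 and 0.303 in edgeR's test.

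Genes next to this pathway were read from lists chosen by function. The pentose phosphate list, whose enzymes divert glucose 6-phosphate to NADPH and ribose, had the largest share of calls among 5 such lists: 4 of its 9 genes tested (44.4%) were lower at an unadjusted p under 0.05, against 10.1% of all genes, and 0 were higher. The median of its log2 fold changes was -0.23, and 8 of 9 were below 0. Markers of cell types went both ways. Below 0 were 12 of 12 for satellite glia (median -0.60) and 10 of 12 for fibroblasts (median -0.49). Above 0 were 24 of 25 for sensory neurons (median 0.46) and 11 of 12 for Schwann cells (0.77). So were 9 of 12 for macrophages (0.57), 9 of 11 for endothelial and mural cells (0.32) and 5 of 5 for red blood cells (1.34). The part of any cell type in the pentose phosphate list was not tested. Taldo1, the transaldolase that links the branch back to glycolysis, was at 106, 124 and 162 CPM after PRATA and 256, 237 and 347 CPM after sham. Every PRATA sample was below every sham sample, with a log2 fold change of -1.10 ± 0.24 (SE), an unadjusted p of 0.00152 and an adjusted p of 0.156 by edgeR's test, and adjusted p from 0.00153 to 0.550 over 16 alternatives. Rpia and Rpe, which interconvert the pentose phosphates, had log2 fold changes of -0.92 and -0.68, also without overlap.

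The other lists gave fewer calls, read here against the 8.19% of all genes that were higher and the 10.1% that were lower. Among 28 further genes of glycolysis and pyruvate metabolism, 3.57% were higher and 7.14% lower: 1 was higher (Slc2a6, a carrier of lysosomal membranes, log2 fold change 0.60) and 2 were lower, namely Bpgm, which makes 2,3-bisphosphoglycerate (-0.85), and Adpgk, an ADP-dependent glucokinase (-0.75). Of 13 glycogen genes, 2 (15.4%) were higher, Pygb, the brain glycogen phosphorylase (0.55), and Phkg2, a phosphorylase kinase subunit (0.48), with a median of 0.36 over the list. Gaa, the lysosomal glucosidase, had the next smallest p and a log2 fold change of 0.36. Of 17 genes of the tricarboxylic acid cycle, 1 (5.88%) was lower, the GTP-specific succinyl-CoA ligase subunit Suclg2 (-0.95), and the median was 0.15. Dlst, a subunit of the oxoglutarate dehydrogenase complex, and Idh2, a mitochondrial isocitrate dehydrogenase, followed at -0.27 and 0.34 without passing the threshold.

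The list of other hypoxia genes mixed regulators of the response, such as Epas1, Egln2, Arnt and Vhl, with its targets. Of its 21 genes tested, 3 were higher (14.3%, against 8.19% of all genes) and 2 lower (9.52%, against 10.1%), with a median of -0.11. Epas1, which encodes HIF-2α, was at 162, 299 and 205 CPM after PRATA and 515, 253 and 494 CPM after sham, where the groups overlapped and sham replicate 2 again lay among the PRATA samples. Its log2 fold change was -0.92. The oxygen sensor Egln2 had a log2 fold change of 0.52, and the carbonic anhydrase Car9, listed as Ca9, had 8, 12 and 16 reads after PRATA and 5, 2 and 1 after sham, too few for a firm size. Ddit4, an inhibitor of mTORC1, and Lox, a collagen cross-linking enzyme, were the other called genes, at 0.55 and -0.99, and are named after their values were seen.

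**Figure D5:**
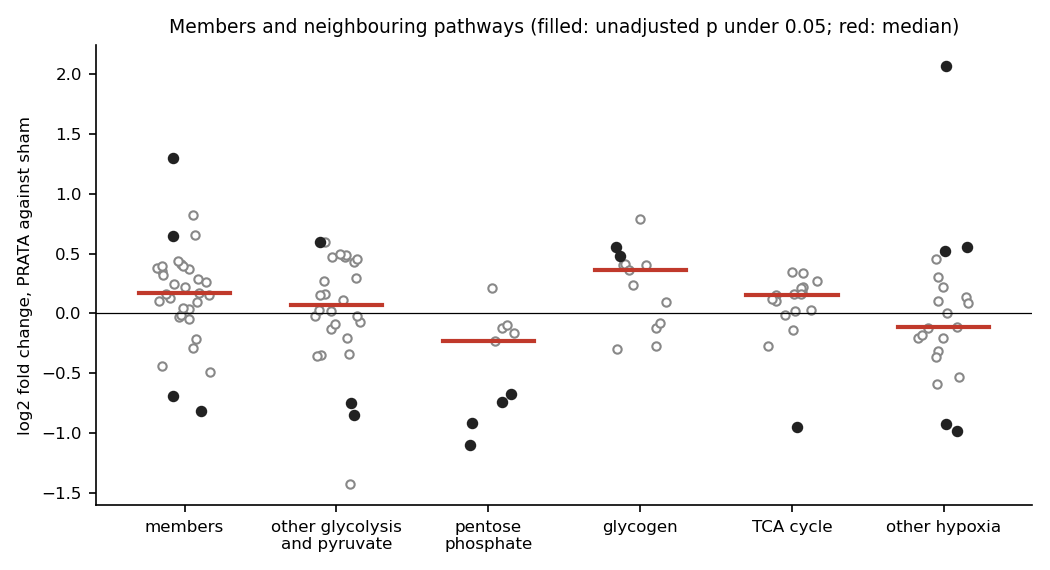
Log2 fold change of PRATA against sham for the 33 members and for 5 lists of neighbouring genes, with 1 point per gene tested, filled where the unadjusted p was under 0.05, and a bar at the median of each list. The pentose phosphate list has 8 of 9 points below 0 and 4 filled ones, while the members are centred on 0.17.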

How the data were processed

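RNA of isolated L1-L2 DRG neurons was sequenced with stranded total RNA libraries, paired-end, in 3 PRATA and 3 sham samples. The authors deposited raw counts of reads per gene without normalization. The paper describes HISAT2, StringTie and Cuffdiff, and the submitters' processing notes name STAR 2.7.3a, RSEM and DESeq2. Which of these made the counts, the genome build, the annotation and the strand setting are not given in the sources used here. All columns of sample values were used.

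Counts were fitted over the whole table in R 4.3.3 with edgeR 4.0.16 (filterByExpr, minimum count 10 and total 15, TMM, glmQLFit and glmQLFTest without covariate, two-sided, Benjamini-Hochberg over 14919 genes). DESeq2 1.42.0 and limma 3.58.1 served as alternatives, with other scaling, filters, the replicate block and left-out samples. The fit was tested on simulated data. Paralogue ratios used CPM plus 0.5 and an exact permutation test over samples. Promoters and plots were handled in Python 3.11.15 with matplotlib 3.10.9.

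The members, gene lists and alternatives were chosen with earlier results of these data known. Values in every sample are given for members past an unadjusted p of 0.05 and for 20 members fixed by role, and up to 3 genes with the smallest p are named from each neighbouring list, with the exceptions marked in the text. The markers of other cell types were described by their sums: fibroblast markers were at 1270 to 3660 CPM after PRATA and 2230 to 3410 CPM after sham (601 to 2767 and 1512 to 2940 CPM without Thy1, which is also in the neuron list), endothelial and mural markers at 123 to 211 and 77.7 to 223 CPM, skeletal muscle markers at 8.13 to 10.4 and 5.94 to 16.5 CPM, and red blood cell markers at 7.74 to 1050 and 3.87 to 248 CPM. 1 item is not reported here, Gapdh was not analysed here, and no protein sequences were used.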

Additional observations from a re-analysis of the deposited data

How the results depend on the processing

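The log2 fold changes of Ldha, Hk2, Pfkfb2 and Slc16a3 kept their sign under all 16 alternatives, at -0.80 to -0.58, -1.07 to -0.59, 0.52 to 0.71 and 0.87 to 1.58, and all 4 passed an unadjusted p of 0.05 under 8 of them. Genes with an adjusted p under 0.05 numbered 728 with DESeq2, 1173 with voom and 13 without PRATA replicate 3 and sham replicate 1 together, against 0, and members numbered 1 with DESeq2 (Ldha) and 2 with voom (Hk2 and Ldha). With voom, 2324 genes were higher and 2282 lower at an unadjusted p under 0.05, and 7 members were higher, Slc16a3 not among them. Without the samples that stood apart, 1 member was lower (Ldha) and 2 were higher (Pdk4 and Pfkfb4), while Pfkfb2, Slc16a3 and Hk2 did not pass. When single samples were left out, 0 to 721 genes and 0 to 2 members had an adjusted p under 0.05, the maxima without sham replicate 2 (members Hk2 and Slc16a1). At an unadjusted p under 0.05, 548 to 2073 genes were higher and 858 to 2181 lower, with 1 to 7 members higher and 1 to 5 lower. The highest numbers came without sham replicate 2, the shallowest sample, and the cause was not tested.

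Same-numbered samples did not deviate together (r = -0.37, -0.08 and -0.35 for numbers 1 to 3, and 0 of 6 samples correlated best with its own number). A pairing by number was thus not seen, but with 3 samples per group this check cannot exclude one. With the replicate block, 621 genes were higher and 907 lower, and 0 members were lower at an unadjusted p under 0.05, while Pfkfb2 and Pfkfb4 were higher, and Ldha, Hk2 and Slc16a3 did not pass.

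Values near 0 turned sign. With library size alone, Eno1 was at -0.009 and Pdha1 at 0, with voom Eno1 at -0.008 and Pgam2 at 0.01. Without PRATA replicate 3 and sham replicate 1 together, Eno1 was at -0.19, Pkm at -0.029, Pdha1 at -0.039, Pdhb and the pyruvate dehydrogenase subunit median at -0.025, Dlat at -0.003, and the tricarboxylic acid cycle median at -0.032. Over single left-out samples, values ranged from -0.078 to 0.047 for Pgam2, -0.22 to 0.86 for Eno2, -0.12 to 0.12 for Eno1, -0.044 to 0.12 for Pdha1, -0.064 to 0.24 for Dlat, -0.21 to 0.066 for Pgk1, -0.45 to 0.008 for Pdk1 and -0.12 to 0.043 for Mpc2. List medians ranged from -0.044 to 0.24 for the pyruvate dehydrogenase subunits, -0.15 to 0.001 for other hypoxia genes, -0.006 to 0.17 for other glycolysis genes and -0.039 to 0.26 for the tricarboxylic acid cycle. Depth limits genes near the floor, such as Slc2a3 and Car9. Counts were low as well for Pgam2, at 12 to 24 reads, and Slc16a3, at 12 to 70 reads.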
